A study of Mus musculus with 4 samples.

Results

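The carnitine shuttle was followed through the small intestinal epithelium of mice on a control or a ketogenic diet, as the 6 genes Cpt1a, Cpt2, Slc25a20, Crat, Crot and Slc22a5 out of 27998 in the count matrix. They were chosen by name as carnitine acyltransferases and carnitine carriers, and all 6 had UMIs. Dissociated intestines had been made into droplet-based single-cell libraries that tag the 3′ end of transcripts, 2 libraries per diet, and the series asks how a ketogenic diet, rich in fat and very poor in carbohydrate, bears on intestinal tumours. The groups differ by diet alone in the labels, ControlDiet against KetoDiet, and the cell table gives every cell as male and free of disease. The sources used here do not give the strain, genotype, age, time on diet or number of mice behind a library. The errors and p-values therefore measure the spread between libraries, which may be partly technical.

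Long-chain fatty acids cross the inner mitochondrial membrane only as carnitine esters. CPT1A, on the outer membrane, moves the acyl group from coenzyme A to carnitine and is inhibited by malonyl-CoA. The carrier encoded by Slc25a20 exchanges acylcarnitine for free carnitine, and CPT2 on the matrix side rebuilds acyl-CoA for beta-oxidation. CRAT acts on acetyl and other short acyl groups, CROT on the medium-chain products of peroxisomal oxidation, and the sodium-dependent transporter OCTN2, encoded by Slc22a5, brings carnitine into the cell. Cpt1a and Slc25a20 are textbook targets of the fatty acid-sensing PPAR receptors, and in the intestine the shuttle serves enterocytes that meet dietary fat as well as crypt cells that burn it.

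The members lie on 6 chromosomes of mm10 by GENCODE M21. Cpt1a (ENSMUSG00000024900.5) is on chromosome 19, 3322334 to 3385733, plus strand, and Slc25a20 (ENSMUSG00000032602.6) on chromosome 9, 108662088 to 108684641, plus strand. Cpt2 is on chromosome 4, 107903981 to 107923610, Crat on chromosome 2, 30400471 to 30415813, Crot on chromosome 5, 8966033 to 8997324, and Slc22a5 on chromosome 11, 53864542 to 53891660, all on the minus strand. Dolpp1 overlaps the last 1000 bases of Crat on the opposite strand, and the sources used here do not state how the counting treated strand, so Crat counts may hold Dolpp1 reads. Promoter sequence is shown for the pair that passed the diet test, upstream of the RefSeq start (GRCm38.p6). GC boxes (GGGCGG on either strand) are in capitals. Each sequence stops before the first annotated exon base met downstream of its own first base. The Cpt1a window is chr19:3323051-3323284 and the Slc25a20 window chr9:108661886-108662087, both on the plus strand. The Cpt1a window lies inside the GENCODE gene, downstream of its start at 3322334, so it does not precede the whole gene. The Slc25a20 window ends just before the GENCODE start at 108662088.

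Cpt1a: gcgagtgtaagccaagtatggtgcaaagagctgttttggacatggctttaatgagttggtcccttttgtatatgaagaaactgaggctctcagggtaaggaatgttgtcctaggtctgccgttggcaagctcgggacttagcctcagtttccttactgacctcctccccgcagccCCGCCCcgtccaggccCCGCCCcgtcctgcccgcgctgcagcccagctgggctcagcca

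Slc25a20: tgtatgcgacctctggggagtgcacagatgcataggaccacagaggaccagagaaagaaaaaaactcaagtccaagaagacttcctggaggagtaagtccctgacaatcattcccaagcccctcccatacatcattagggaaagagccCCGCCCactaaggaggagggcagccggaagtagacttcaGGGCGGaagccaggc

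RefSeq windows of 250 bases before the start were found for 5 members: Cpt1a, Cpt2, Crot, Slc22a5 and Slc25a20. Each held at least 2 GC boxes, while 32.7% of 32851 such windows held at least 1. The share with at least 2 was not counted. Annotated exon filled 178 of the 250 bases for Crot, and both Crot boxes lay in it, 142 to 137 and 49 to 44 bases before the start. The Slc25a20 box 10 to 5 bases before the start also lay in annotated exon. G and C made up 56.8% to 73.6% of the bases in these 5 windows, against a median of 52.4% over all windows. The binding motif of PPAR receptors with their RXR partner, a direct repeat of AGGTCA spaced by 1 base and searched with up to 2 mismatches on either strand, was in 0 of the 5 and in 3.24% of all windows. This says only that these letters are not in these windows.

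The libraries held 3194 to 4896 cells and 27316428 to 34106639 UMIs, with a median of 6974.5 to 9040.0 UMIs per cell. At most 26 cell barcodes were shared by 2 libraries. Counts were summed per library and deposited cell type. The sums for stem cells reached 1712487 to 3400566 UMIs, for enterocytes 14946235 to 19465885 and for the Paneth class 289338 to 526414. Each type's own marker list was highest in that type in every library, except that goblet markers were about as high in the Paneth class (57004 to 98485 CPM, the count scaled to the same total of UMIs in every library) as in goblet cells (72604 to 84964 CPM). Stromal marker sums were at most 0.742 CPM in stem, transit amplifying, enterocyte and goblet sums, and Col1a2 was at 0 in all types. They were 1.67 to 13.1 CPM in enteroendocrine cells. Immune marker sums were uneven between libraries, at 6.33 and 9.50 CPM in control and 0.335 and 15.8 CPM in ketogenic enterocytes, at most 1.53 CPM in stem, transit amplifying and goblet cells and up to 26.6 CPM in the Paneth class. Their part in the results was not tested.

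By cell type, the members did not share 1 pattern. The levels that follow are CPM on 1 normalization over all 28 sums, as mean ± SD over the 4 libraries of both diets, and they are given without a test because the types were assigned from the expression of these same cells. Cpt1a was highest in enterocytes (65.5 ± 27.1 CPM), then in transit amplifying (56.9 ± 23.2), goblet (51.3 ± 15.7) and stem cells (49.3 ± 19.5). Below them came the Paneth class (41.9 ± 28.2), tuft (29.0 ± 5.76) and enteroendocrine cells (20.4 ± 8.44). Each neighbouring pair in this order overlapped, although enterocytes lay above transit amplifying cells in 4 of 4 libraries.

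Cpt2 had another order, with enteroendocrine cells at the top (99.0 ± 13.6 CPM) above enterocytes (68.2 ± 16.7) in 4 of 4 libraries, although the 2 ranges overlapped. Transit amplifying, tuft, stem and goblet cells followed at means of 48.2, 46.2, 42.6 and 40.5 CPM, and the Paneth class was lowest at 33.9 ± 8.62 CPM on 35 UMIs. Without the normalization, mean Cpt2 was higher in tuft (54.2 CPM) than in transit amplifying cells (48.6). For Slc25a20 tuft cells stood first (44.1 ± 12.3 CPM) and enterocytes next (37.0 ± 21.6 CPM). On this normalization that order differed by diet. Tuft cells were at a mean of 42.4 CPM against 21.1 CPM in enterocytes on the control diet. On the ketogenic diet they were at 45.8 against 53.0 CPM. Without the normalization, tuft cells were at 1.98 and 2.79 times the enterocyte CPM in control libraries. In ketogenic libraries they were then at 1.09 and 0.97 times, so the ketogenic order depended on the scaling.

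Crot set tuft cells apart. Its level there was 79.5 ± 15.3 CPM, from 58.0 to 92.0 over the libraries, and the next type, enterocytes, reached 19.0 to 41.8 CPM, so the ranges did not overlap. This was the one pair of neighbours in the 6 orders without overlap over the libraries of both diets. Within a diet others could be apart. On the control diet Cpt2 was at 92.2 and 103.6 CPM in enteroendocrine cells against 64.9 and 50.6 CPM in enterocytes. On the ketogenic diet that pair overlapped, at 115.7 and 84.5 against 90.9 and 66.3 CPM. Tuft cells are chemosensory cells, and their enterocyte marker sum was only 0.0452 to 0.0948 of that in enterocytes, against 2.61 to 4.15 for Crot.

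Crat was highest in enteroendocrine cells, at 13.3 ± 1.34 CPM on 49 UMIs. That was above enterocytes (11.6 ± 1.08 CPM) in 4 of 4 libraries with overlapping ranges. Goblet cells were lowest (5.90 ± 1.46 CPM). Slc22a5 was scarce, with 226 UMIs over all enterocytes (3.47 ± 1.56 CPM), 31 in stem cells (2.94 ± 0.564 CPM) and 1 in the Paneth class. At that depth its order over the types was not resolved. Enterocytes lay above stem cells in 2 of 4 libraries. Both control libraries went the other way, at 2.57 and 2.37 CPM in enterocytes against 3.50 and 3.33 CPM in stem cells.

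**Figure D1:**
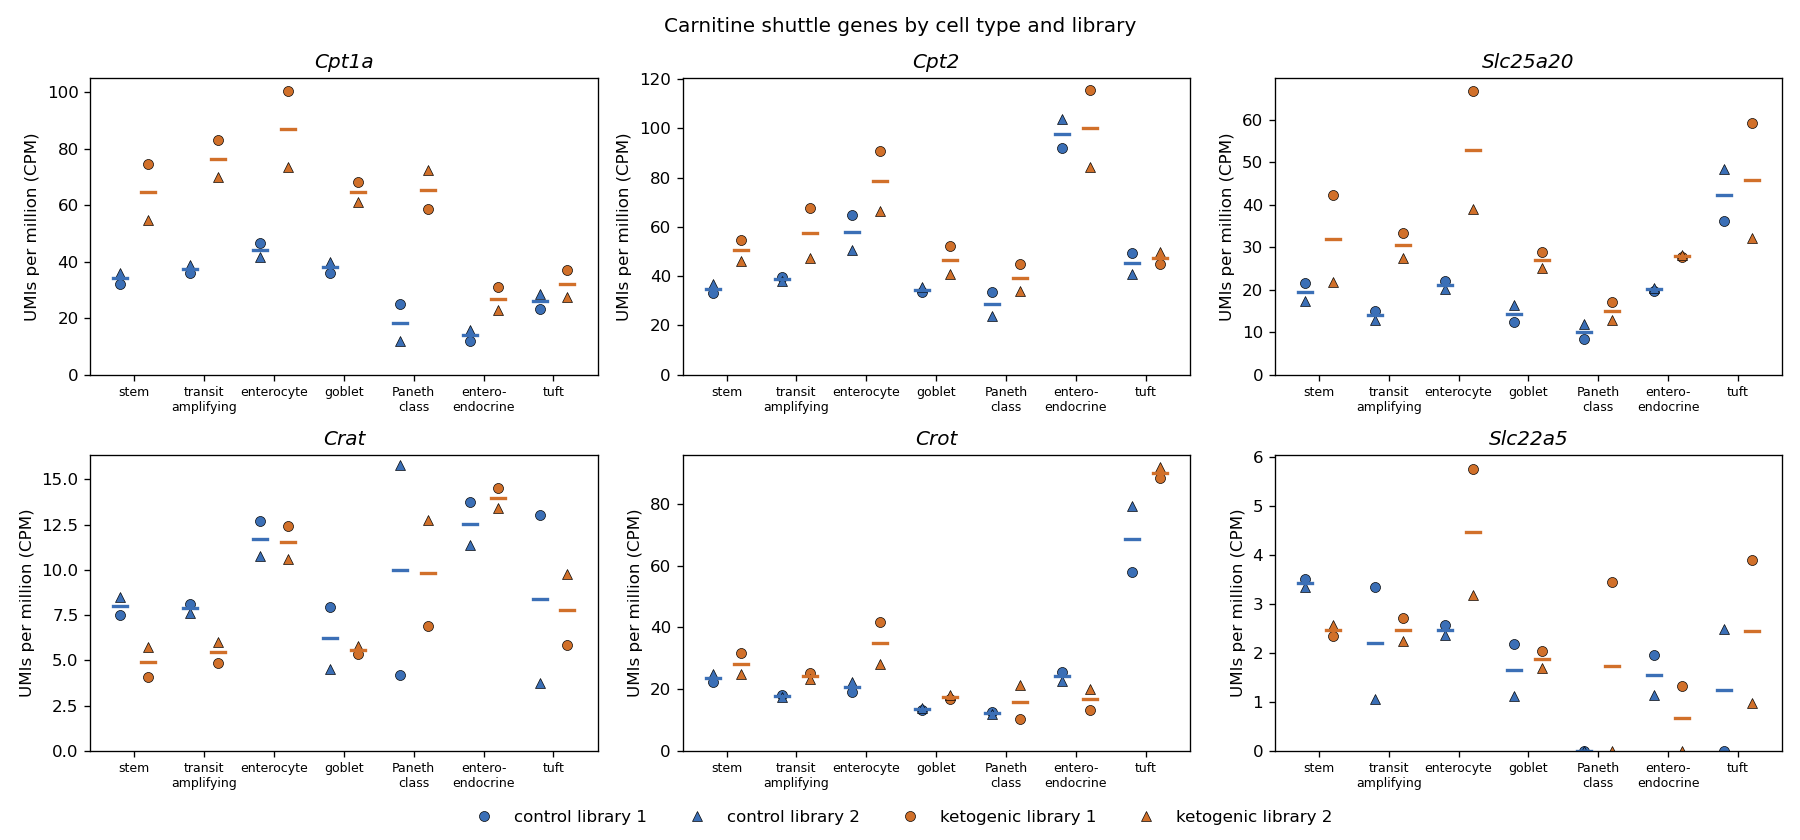
Level of each carnitine shuttle gene (CPM on 1 normalization over 28 sums, vertical axes starting at 0) in 7 cell types, with 1 point per library and a bar at the mean of each diet. Cpt1a lies higher in both ketogenic libraries than in both control libraries in every type but tuft, and Crot in tuft cells, at 58.0 to 92.0 CPM, stands above the other types.

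The diet comparison asked where the shuttle responded to the high-fat regime. Values of single genes below are CPM normalized within a cell type, so they differ slightly from those above. Marker sums, and values of the enterocytes split by maturity, are scaled to the total of UMIs alone. Fold changes are from edgeR with an adjusted p threshold of 0.05 over all genes tested. Cpt1a, the entry step, rose in stem, transit amplifying and goblet cells, and Slc25a20, the inner membrane carrier, rose in transit amplifying and goblet cells. No member fell past the threshold. Members past it were 1 of 5 tested in stem cells, 2 of 6 in transit amplifying cells and 2 of 5 in goblet cells, where 0.263%, 0.457% and 0.31% of all genes tested rose. Before adjustment, p was below 0.05 for 3, 4 and 3 members, as for 6.42%, 9.21% and 8.96% of all genes. DESeq2 called 0, 2 and 0 members, among 14, 55 and 24 genes called in either direction. In each of the 3 types 4 members were higher without overlap between the diets, as were 17.4%, 20.1% and 19.4% of all genes.

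In transit amplifying cells, the dividing progeny of stem cells, Cpt1a stood at 36.5 and 39.1 CPM on the control diet and at 84.7 and 70.8 CPM on the ketogenic diet. Both ketogenic libraries lay well above both controls (log2 fold change 1.03 ± 0.12, an SE with n = 2 libraries a diet, edgeR adjusted p = 0.00156). The call held in all 10 alternatives, over which the log2 fold change ran from 0.90 to 1.16. Slc25a20 went from 15.2 and 13.1 CPM to 34.1 and 27.9 CPM, again without overlap (1.13 ± 0.17, adjusted p = 0.00833 by edgeR). It was not called without ketogenic library 1 (0.98, adjusted p = 0.0864). The enterocyte marker sum was 743 and 761 CPM in control and 513 and 552 CPM in ketogenic transit amplifying cells. Its bearing on these changes was not tested.

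Stem cells held Cpt1a at 32.7 and 36.6 CPM on the control diet and 75.7 and 55.8 CPM on the ketogenic diet, from 64, 119, 127 and 191 UMIs. All of the ketogenic values were above the control values (0.88 ± 0.17, adjusted p = 0.0109 by edgeR). The call was absent with DESeq2 (0.90, adjusted p = 0.204), among cells under 20% mitochondrial UMIs (0.70, adjusted p = 0.175) and without ketogenic library 1 (0.68, adjusted p = 0.131). Stem cells of ketogenic library 1 had a median of 16.2% mitochondrial UMIs against 8.26% to 11.5% in the other 3, and the part of this in the result was not tested beyond that limit on cells. Enterocyte markers in stem cells were at 449 and 480 CPM in control and 475 and 432 CPM in ketogenic libraries. Per library these markers were at 0.155 to 0.248 of their enterocyte level, and Cpt1a at 0.726 to 0.878 of its own. The part of enterocyte RNA in the result was not tested. Slc25a20 in stem cells was at 22.0 and 17.5 CPM in control libraries and 42.9 and 22.2 CPM in ketogenic ones, so most of the difference lay in 1 library (0.65 ± 0.25, adjusted p = 0.58 by edgeR). Its log2 fold change was 0.20 without ketogenic library 1 and 1.15, past the threshold, without ketogenic library 2.

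Goblet cells, which secrete mucus, had Cpt1a at 33.9 and 37.5 CPM in control and 64.1 and 57.1 CPM in ketogenic libraries. The groups were far apart relative to the spread within each (0.76 ± 0.13, adjusted p = 0.00782 by edgeR). Slc25a20 there went from 11.6 and 15.3 CPM to 27.0 and 23.6 CPM (0.91 ± 0.18, adjusted p = 0.0424 by edgeR). With DESeq2 neither passed (0.76, adjusted p = 0.0837 for Cpt1a, and 0.91, adjusted p = 0.528 for Slc25a20). Slc25a20 also lost its call without ketogenic library 1 (0.81, adjusted p = 0.0528) and without the 5% of cells with most UMIs (0.85, adjusted p = 0.0565). Enterocyte markers were at 282 and 261 CPM in control and 253 and 209 CPM in ketogenic goblet cells.

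Enterocytes gave the same 2 genes at similar or larger size, with a wider gap between the ketogenic libraries. Cpt1a was at 45.4 and 41.0 CPM in control and 99.0 and 72.4 CPM in ketogenic libraries, and its log2 fold change of 0.99 ± 0.16 did not pass (adjusted p = 0.0954 by edgeR). Slc25a20 was at 21.5 and 19.9 CPM against 66.0 and 38.5 CPM (1.33 ± 0.24, adjusted p = 0.12 by edgeR). Of the members 5 were higher without overlap, as were 22.9% of all genes, and Cpt1a and Slc25a20 each passed in 6 of 10 alternatives, DESeq2 and the replicate block included. Without ketogenic library 1 Slc25a20 was at 0.89. Members past the threshold in enterocytes were 0 of 6 by edgeR, while 0.0769% of all genes rose. By DESeq2 they were 2, among 176 of 11697 genes called in either direction. Before adjustment p was below 0.05 for 5 members and for 9.91% of all genes. The enterocyte marker sum was 2888 and 2710 CPM in control and 2740 and 1744 CPM in ketogenic libraries.

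**Figure D2:**
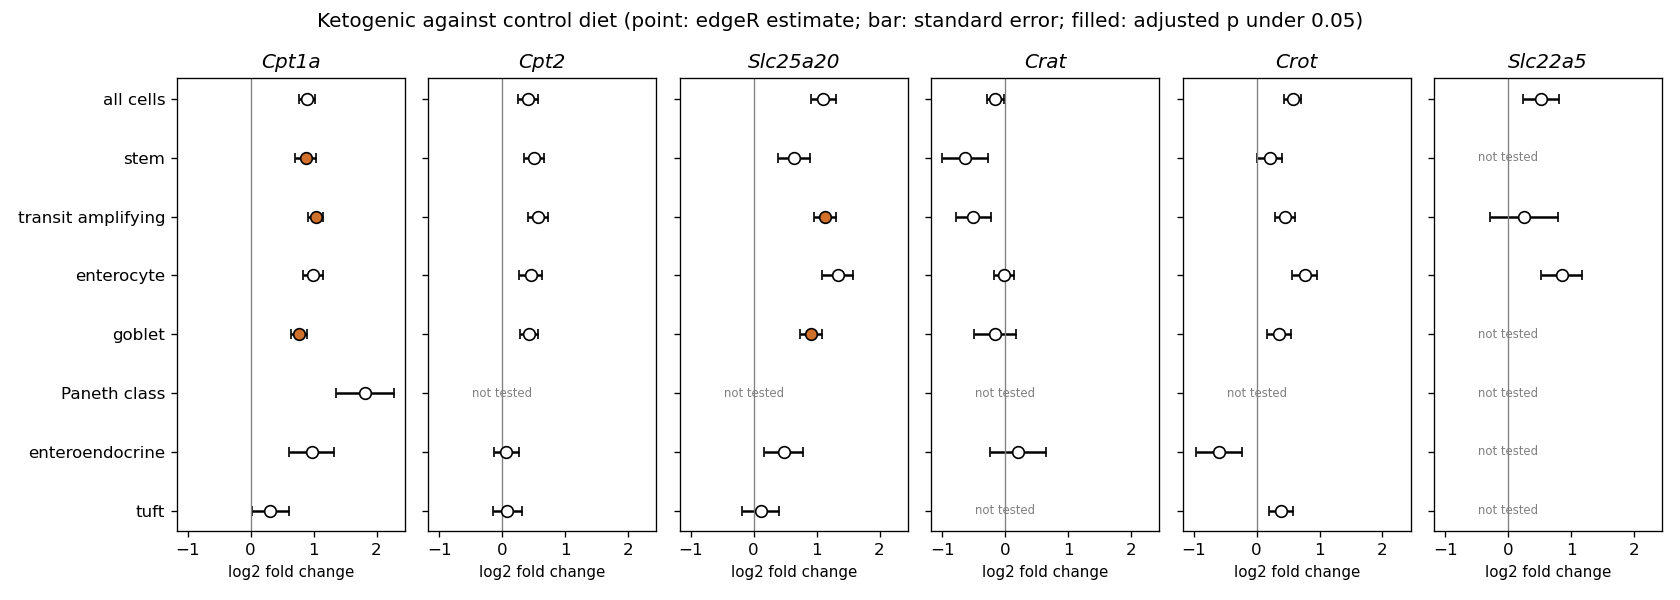
Log2 fold change of each gene, ketogenic against control, in all cells and in 7 cell types, with the edgeR standard error (n = 2 libraries per diet) and filled points where the adjusted p is under 0.05. The 5 filled points are Cpt1a in stem, transit amplifying and goblet cells and Slc25a20 in transit amplifying and goblet cells.

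Summed over all cells, Cpt1a was at 41.2 and 39.1 CPM in control and 82.9 and 65.9 CPM in ketogenic libraries, and Slc25a20 at 19.8 and 18.8 against 50.8 and 32.6 CPM. Both were apart between diets but did not pass (0.89 ± 0.13, adjusted p = 0.0738, and 1.11 ± 0.20, adjusted p = 0.14 by edgeR). In all cells edgeR called 0 of 6 members, while 0.086% of all genes rose. DESeq2 called 2 members, among 211 of 12784 genes called in either direction. Before adjustment p was below 0.05 for 4 members and for 11% of all genes, and 4 members and 22.4% of all genes were higher without overlap. In such a sum fewer cells of a type and less RNA per cell cannot be told apart. With an equal mix of cell types Cpt1a was at 0.97 and passed (adjusted p = 0.0438 by edgeR).

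Cpt2, which completes the shuttle, was higher in both ketogenic libraries in the 4 large types and passed in none of them by edgeR. The log2 fold changes were 0.50 ± 0.16 in stem cells, 0.57 ± 0.16 in transit amplifying cells, 0.45 ± 0.18 in enterocytes and 0.42 ± 0.14 in goblet cells (adjusted p from 0.184 to 0.486). In transit amplifying cells it was at 40.2 and 38.4 CPM in control and 69.0 and 48.1 CPM in ketogenic libraries, and passed in 5 of 10 alternatives. These were the fits with no filter on low counts, with the replicate block, without either control library and without ketogenic library 2. In enteroendocrine cells, where Cpt2 was highest, it was at 120 and 131 CPM in control and 149 and 109 CPM in ketogenic libraries, overlapping between diets (0.06 ± 0.20).

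Among the acyltransferases of shorter chains, Crot was higher in both ketogenic enterocyte sums, at 18.5 and 21.9 CPM against 41.3 and 27.7 CPM (0.76 ± 0.20, adjusted p = 0.266 by edgeR). It passed there with no filter on low counts and without control library 2. In tuft cells, its highest type, Crot was at 70.5 and 93.9 CPM against 107 and 110 CPM (0.39 ± 0.19, adjusted p = 0.871). Enteroendocrine cells went the other way, from 33.3 and 28.7 CPM to 17.0 and 25.9 CPM (-0.59 ± 0.37, adjusted p = 0.9997 by edgeR), on 13 to 20 UMIs per library. Crat was not higher with the diet in any of the 4 large types. It was at 7.66 and 8.61 CPM in control against 4.17 and 5.84 CPM in ketogenic stem cells (-0.64 ± 0.36, adjusted p = 0.837) and at 8.23 and 7.72 against 4.95 and 6.13 CPM in transit amplifying cells (-0.51 ± 0.28, adjusted p = 0.617). Lower values without overlap were found for 17.5% of all genes in stem cells, 19.6% in transit amplifying cells and, beside Crot, 16.1% in enteroendocrine cells. In enterocytes, with the most Crat UMIs (177 to 227 per library), the diets overlapped (-0.02 ± 0.16).

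Slc22a5, the carnitine importer, passed the filter on low counts in all cells, transit amplifying cells and enterocytes. Enterocytes had 46, 45, 82 and 53 UMIs, which are 2.51 and 2.33 CPM in control and 5.68 and 3.13 CPM in ketogenic libraries (0.85 ± 0.33, adjusted p = 0.461 by edgeR). The difference was 0.36 without ketogenic library 1. In the rarer types depth set the limit. Only Cpt1a was tested in the Paneth class, at 6, 3, 17 and 17 UMIs (1.82 ± 0.46, adjusted p = 0.257), and it reached the filter there through the ketogenic libraries, where it was high. In enteroendocrine cells Cpt1a was at 15.4 and 20.1 against 40.0 and 29.3 CPM (0.97 ± 0.36, adjusted p = 0.897), and in tuft cells at 28.2 and 33.7 against 44.7 and 32.8 CPM, overlapping (0.31 ± 0.29, adjusted p = 0.965). In the Paneth class, enteroendocrine and tuft cells 0 members passed by edgeR or by DESeq2, while 0.44%, 0.0291% and 0.0144% of all genes rose by edgeR. Before adjustment p was below 0.05 for 1, 1 and 0 members and for 7.68%, 4.61% and 5.34% of all genes. Higher without overlap were 1, 2 and 1 of the members tested and 19.1%, 16.8% and 17.5% of all genes.

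The median log2 fold change of the members tested was 0.50 in stem cells, 0.51 in transit amplifying cells, 0.81 in enterocytes, 0.42 in goblet cells and 0.55 in all cells. It was lower in enteroendocrine and tuft cells, at 0.21 in each, and the Paneth class had the single value of Cpt1a. The medians of all genes tested lay between -0.01 and 0.02. Whether the diet effect differed between enterocytes and stem cells was tested in 1 fit with library as a block. The difference of log2 fold changes, enterocytes minus stem cells, was 0.06 ± 0.18 for Cpt1a and 0.60 ± 0.22 for Slc25a20 (adjusted p = 0.979 and 0.501 by edgeR). Past the threshold were 0 of 6 members by edgeR and 0 by DESeq2, and 0.259% of all genes by edgeR. Before adjustment p was below 0.05 for 2 members and 6.94% of all genes. That the test was not passed does not show that the effects are equal.

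Levels were also compared along enterocyte differentiation. Enterocytes of each library were split at the median of a score over 10 genes of mature villus cells, none of them a member, into a lower and an upper group of 874 to 1386 cells. Between 26.5% and 36.6% of the cells lay within 0.05 score units of the median, so the groups are ranges and not types. Apoa4, an apolipoprotein of mature enterocytes outside the score, was 9.36 to 22.5 times as high in the upper group. Cpt1a, Cpt2, Slc25a20, Crat and Crot were higher in the upper group in 4 of 4 libraries, and Slc22a5 in 3. The share of all genes that were higher in the upper group was not counted. Median UMIs per cell were also higher in the upper group of each library, at 7914 to 10496 against 6815 to 9097.

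The gradient was steep for Cpt2 and Crat and shallow for Cpt1a. Cpt2 was 1.71 to 1.84 times as high in the upper group, for instance 43.4 against 79.7 CPM in control library 1 and 46.6 against 84.3 CPM in ketogenic library 2. Crat was 1.53 to 2.18 times and Slc25a20 1.31 to 1.64 times as high, Crot 1.19 to 1.59 times and Cpt1a 1.11 to 1.31 times. Slc22a5, at few UMIs, ran from 0.854 to 1.76 times and was lower in the upper group of ketogenic library 2. The ketogenic to control ratio of mean CPM was present in both groups, at 1.84 in the lower and 2.07 in the upper for Cpt1a and at 2.35 and 2.62 for Slc25a20. Crat stayed near even, at 1.07 and 0.96. The groups were chosen by expression, so these values are a description with no test.

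**Figure D3:**
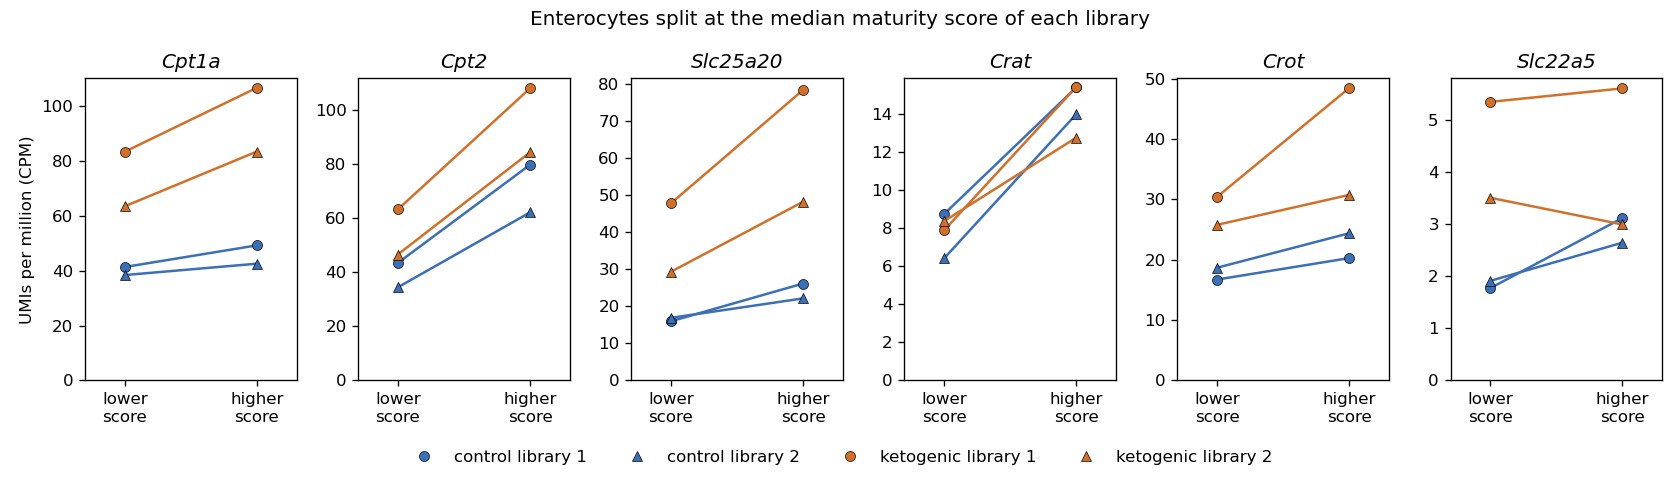
Level of each gene (CPM, axes starting at 0) in the lower and upper group of the enterocytes by maturity score, with 1 line per library. Cpt2 rises 1.71 to 1.84 times from the lower to the upper group in all 4 libraries, and for Cpt1a both ketogenic lines lie above both control lines in each group.

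Genes around the shuttle were taken from lists of their pathways. Of 16 enzymes and electron carriers of mitochondrial beta-oxidation, which receives the acyl groups that CPT2 delivers, 7 rose in transit amplifying cells, 5 in stem cells, 3 in goblet cells and 1 in enterocytes by edgeR, and 0 fell (also 0 with p below 0.05 before adjustment, and DESeq2 called 7, 4, 2 and 6). Of all genes tested 0.457%, 0.263%, 0.31% and 0.0769% rose in these types by edgeR. DESeq2 called 55, 14, 24 and 176 genes there in either direction. In the Paneth class, enteroendocrine and tuft cells edgeR and DESeq2 called 0 of the 12, 15 and 15 tested. Before adjustment p was below 0.05 for 5, 4 and 3 of them, and for 7.68%, 4.61% and 5.34% of all genes. In the Paneth class Acadvl (9, 7, 21 and 20 UMIs) and Decr1 (8, 9, 19 and 15), both among the 5, would not have reached the low-count filter on the control libraries alone. Acadl (7, 13, 10 and 7 UMIs) was not tested there. The Paneth values of this list may therefore be tilted upward. The list's median log2 fold change was 0.40, 0.35, 0.35 and 0.32 in the first 4 types, against 0.00 to 0.02 over all genes tested, and 0.50, 0.32 and 0.12 in the other 3. Acadl, a long-chain acyl-CoA dehydrogenase, rose in all 4 types, for instance from 27.5 and 27.2 CPM to 52.9 and 57.5 CPM in goblet cells (1.01 ± 0.13, adjusted p = 0.000811 by edgeR). In enterocytes it just passed (0.85 ± 0.10, adjusted p = 0.0473 by edgeR), and the call was lost without either ketogenic library (0.84 and 0.86) and without the 5% of cells with most UMIs (0.88). Acadvl, which takes the longest chains, rose in transit amplifying cells by 0.99 ± 0.10 and in stem cells by 0.79 ± 0.13 (adjusted p = 0.000299 and 0.00143). The isomerase Eci2 and the thiolase Acaa2 rose in stem, transit amplifying and goblet cells, by 0.83 ± 0.13, 0.93 ± 0.12 and 0.99 ± 0.13 and by 0.71 ± 0.12, 0.79 ± 0.09 and 0.44 ± 0.09. The goblet call of Acaa2 (adjusted p = 0.0476 by edgeR) was lost with DESeq2 (0.45), with no filter on low counts (0.44), among cells under 20% mitochondrial UMIs (0.42) and without ketogenic library 1 (0.36). Hadhb, a subunit of the trifunctional protein, rose in transit amplifying cells (0.78 ± 0.11) and just passed in stem cells (0.58 ± 0.13, adjusted p = 0.04999), and its partner Hadha rose in transit amplifying cells (0.66 ± 0.13), a call lost without ketogenic library 1 (0.46). The stem cell call of Hadhb was lost with DESeq2, RLE size factors, either limit on cells, and without control library 1 or ketogenic library 1 (0.46 to 0.59).

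Of 14 peroxisomal genes, the source of CROT substrates, edgeR called the fatty acyl-CoA importer Abcd3 alone, in transit amplifying cells, where 11 were tested. DESeq2 called 0 there, but 3 of 12 tested in enterocytes and 3 of 13 in all cells, where it called 176 and 211 genes in all. Abcd3 went from 50.6 and 55.1 CPM to 88.3 and 75.4 CPM (0.62 ± 0.12, adjusted p = 0.0245 by edgeR). It lost the call with DESeq2 (0.62) and without ketogenic library 1 (0.51). Of 7 genes of malonyl-CoA control, Acacb, the acetyl-CoA carboxylase that supplies malonyl-CoA at mitochondria, rose in enterocytes from 14 and 13 UMIs to 109 and 73 UMIs. These are 0.764 and 0.673 CPM against 7.54 and 4.32 CPM (3.03 ± 0.38, adjusted p = 0.0491 by edgeR), and the size is uncertain at such control levels. The call was lost without ketogenic library 1 (2.57) and without the 5% of cells with most UMIs (2.95). Acyl-CoA supply and carnitine synthesis had 0 calls by edgeR and by DESeq2 in enterocytes among 8 and 4 genes tested, against 2 and 1 with p below 0.05 before adjustment. Calls were also 0 in transit amplifying, stem and goblet cells. Higher with p below 0.05 before adjustment were 4 of 7 and 2 of 3 in transit amplifying cells. They were 1 of 7 and 0 of 3 in stem cells, and 0 of 8 and 1 of 3 in goblet cells. Of all genes 9.91%, 9.21%, 6.42% and 8.96% had such a p in these 4 types. Of 8 other carnitine acyltransferases and carriers only Slc22a4, Slc22a21 and Slc25a29 could be tested in enterocytes, with 0 passing at any of these limits. Cpt1b and Cpt1c, the muscle and brain forms of CPT1, had 1 and 2 UMIs over all enterocytes.

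The PPAR receptors and coactivators had 0 calls within a cell type by edgeR. In enterocytes 1 gene was higher and 2 were lower with p below 0.05 before adjustment. DESeq2 called 2 there, among 176 genes in either direction. Ppargc1a, a coactivator that drives oxidative genes, moved in opposite directions. It was at 23.7 and 20.8 CPM in control and 13.0 and 12.8 CPM in ketogenic enterocytes, and at 4.60 and 9.53 against 16.7 and 15.8 CPM in stem cells. The difference of its diet effect between the types was -1.88 ± 0.32 (adjusted p = 0.000599 by edgeR), the one called among the members and the listed genes. Within each type it did not pass (-0.79 ± 0.13, adjusted p = 0.0969, and 1.09 ± 0.31, adjusted p = 0.24).

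Genes with the most similar pattern were ranked by Pearson's r of log2 CPM over the 28 sums, among 5172 genes, as a description, since the sums share 4 libraries and differ in depth. Genes similar to Cpt1a included Etfb, an electron transfer flavoprotein subunit (r = 0.82), and Retsat, a retinol saturase (0.81). Slc25a20 was closest to the beta-oxidation genes Acads (0.80) and Hadha (0.79) and to Crot (0.74). Crot itself was closest to Cd47 (0.90), Ptpn6 (0.90) and Cbr1 (0.89), and Cpt2 to Akr1c13 (0.87), Upp1 (0.83) and Cldnd1 (0.82). Crat had weaker neighbours in Vat1 (0.69), Prdx5 (0.65) and Cnot8 (0.65), and Slc22a5, at few counts, lay near Trnt1 (0.81), Huwe1 (0.77) and Scap (0.74). Among the members themselves r ran from -0.38 for Cpt1a with Crat to 0.74 for Slc25a20 with Crot, and was 0.02 for Cpt1a with Cpt2.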

How the data were processed

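The authors deposited raw UMI counts in 1 matrix of genes by cells, with a table of library, cell type and diet. Reads were handled with Cell Ranger 2.1.0 and mm10, per the submitters' processing notes. The sources used here do not state how cells were filtered, doublets treated or types assigned. No doublets were called here, and the authors' cell types were kept. UMIs were summed per library and type (at least 20 cells each) and tested with edgeR 4.0.16 (quasi-likelihood, TMM, filterByExpr, Benjamini-Hochberg over all genes, threshold 0.05) in R 4.3.3, and checked on simulated data. SEs were derived from the fold change and F. Replicate libraries were not copies, as the chi-square of their counts was 30.1 and 22.6 times its degrees of freedom. Results were recomputed with DESeq2 1.42.0, with RLE factors, without the low-count filter, in cells under 20% mitochondrial UMIs, without the 5% of cells with most UMIs, in an equal mix of types, with the replicate number as a block, and without each library in turn. All members were named, with up to 6 called genes per list and 3 similar genes per member (mean log2 CPM of at least 4), of which 1 is not reported here. Members and lists were chosen with earlier results of these data known.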

Additional observations from a re-analysis of the deposited data

Results flagged for a closer look

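Ppargc1a was singled out because its diet effect differed between enterocytes and stem cells by a test of the difference itself, -1.88 ± 0.32 on the log2 scale (adjusted p = 0.000599 by edgeR, n = 2 libraries per diet). Both ketogenic libraries were below both controls in enterocytes and above both in stem cells. Over the alternatives with an adjusted p the difference ran from -2.73 (without control library 2) to -1.44 (without control library 1), and it was called in each. DESeq2 gave no adjusted p for it. The stem cell values rest on 9, 31, 28 and 54 UMIs.

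Crot was singled out because its enteroendocrine values were lower in both ketogenic libraries (log2 fold change -0.59 ± 0.37), whereas in stem, transit amplifying, enterocyte, goblet and tuft sums both were higher. In stem cells this was by a narrow margin, at 23.0 and 25.2 CPM in control against 32.2 and 25.4 CPM in ketogenic libraries (0.21 ± 0.20, adjusted p = 0.942 by edgeR). A test of enterocytes against enteroendocrine cells, chosen after seeing the data, gave a difference of 1.39 ± 0.40 (unadjusted p = 0.000785, adjusted p = 0.209 by edgeR), which did not pass, with 0.22% of all genes called. Without ketogenic library 1 the enteroendocrine log2 fold change was -0.24.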

How the results depend on the processing

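The 5 calls of Cpt1a and Slc25a20 kept their direction in every alternative run, and that of Cpt1a in transit amplifying cells also its significance. The number of genes called moved with the setting. With DESeq2 it was 211 in all cells (22 by edgeR), 14 in stem cells (32), 176 in enterocytes (21), 24 in goblet cells (52), 2 in enteroendocrine cells (4), 2 in tuft cells (1) and 13 for enterocytes against stem cells (30). With no filter on low counts it was 407, 74, 279 (72 in transit amplifying cells by the main setting), 313, 44 (13 in the Paneth class), 27, 0 in tuft cells and 49 for the difference. Among cells under 20% mitochondrial UMIs it was 15 in stem cells, 55 in enterocytes and 4 in tuft cells, and without the 5% of cells with most UMIs 14 in all cells, 6 in enterocytes and 9 in enteroendocrine cells. RLE factors gave 4 in tuft cells (2 up and 2 down, against 1 up), and the equal mix 46 in all cells. Leaving out each library gave 29 to 364 in all cells, 48 to 100 in stem, 37 to 290 in transit amplifying, 12 to 760 in enterocytes, 99 to 189 in goblet, 2 to 31 in Paneth class, 11 to 94 in enteroendocrine and 6 to 37 in tuft cells, and 14 to 358 for the difference. The lone library of a diet is then assumed to vary like the other 2. The causes were not tested.

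The replicate numbers are shared by the diets, but nothing in the labels pairs libraries, and deviations of same-numbered libraries correlated at -0.03 to 0.13. With the replicate block 69 genes were called in all cells, 99 in stem, 200 in transit amplifying, 137 in enterocytes, 104 in goblet, 57 in Paneth class, 19 in enteroendocrine and 4 in tuft cells. Cpt1a then passed in all cells (0.88) and enterocytes (0.97), Slc25a20 in enterocytes (1.29) and Cpt2 in transit amplifying cells.

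Direction changed only for members that had not passed. Without the 5% of cells with most UMIs Crat was at 0.080 in enterocytes and 0.088 in goblet cells and Cpt2 at -0.033 in enteroendocrine cells, and under the mitochondrial limit the difference for Cpt2 was 0.067. Leaving out each library gave -0.15 to 0.10 for Crat in enterocytes, -0.51 to 0.31 in goblet cells, -0.44 to 1.19 for Slc22a5 in transit amplifying cells, -0.22 to 0.23 for Cpt2 in enteroendocrine cells and -0.070 to 0.24 in tuft cells, -0.39 to 0.50 for Slc25a20 in tuft cells, and -0.39 to 0.15 and -0.14 to 0.23 for the differences of Cpt2 and Cpt1a. Levels by type moved by less than 1 SD under the mitochondrial limit. Few UMIs limit the rarer types and Slc22a5.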
